A study of Homo sapiens with 10 samples.

Results

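The 41 genes described here are ATF4, its known targets and the cytosolic aminoacyl-tRNA synthetases, of 27942 genes in the table of expression values. They were chosen by name and matched to the gene symbols of that table, and all 41 were found. They comprise 10 stress regulators and other targets, 6 enzymes of serine, asparagine and folate metabolism, 5 amino acid transporters and 20 tRNA synthetases. Messenger RNA was sequenced from MCF10A, an established non-tumorigenic human mammary epithelial line, kept for 24 h on polyacrylamide gels. The gels carried a DOPA layer and human fibronectin, and all groups had medium with horse serum, epidermal growth factor, insulin, hydrocortisone and cholera toxin. The groups were 60 kPa, 6 kPa, 1 kPa and 400 Pa gels in medium of 5 mM glucose, and a 400 Pa group in high glucose, which the series description gives as 25 mM. Each group had 2 libraries, named biological replicates in the labels, and each library pooled 4 gel cultures of the 1 line. The design compares gel stiffness at 5 mM glucose, and high with low glucose on the softest gel.

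ATF4 is the transcription factor at the centre of the integrated stress response. Kinases that sense lack of amino acids, unfolded protein, haem deficiency or viral RNA phosphorylate the initiation factor eIF2, which lowers general translation while ATF4 messenger RNA is translated more. ATF4, with C/EBP partners, then raises genes for amino acid uptake, amino acid synthesis and tRNA charging, and feedback genes such as TRIB3. Messenger RNA libraries measure the level of ATF4 transcript and of its targets, and not the translation of ATF4.

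A C/EBP-ATF response element is the DNA sequence that ATF4 and a C/EBP partner bind together. The sequences below show where such letters lie near the starts of some members. The letters TGATGNAA were searched on both strands of the RefSeq promoter windows (GRCh38.p14), each running from 250 bases before to 50 after a transcription start. Of the 41 members, 35 had at least 1 window, and 13 of these 35 (37.1%) held the letters in at least 1 of their 51 windows. Among all genes with a window, 4.46% held them, and among all 35116 windows 3.62% did. The 13 were CHAC1, CEBPG, ASNS, SLC3A2, SLC1A5, SLC7A1 and 7 of the 16 synthetases with a window (AARS, CARS, GARS, IARS, MARS, NARS and TARS). PSPH, SHMT2, DARS, LARS, VARS and YARS were not matched. Both counts describe the letters in these windows, and binding was not measured. The members were chosen by name as ATF4, its known targets and the synthetases, so the comparison with all genes is a description and not a test. The 8 of these members that passed the test for stiffness or for glucose are printed 5′ to 3′ with the matched letters in capitals, on the strand that reads TGATGNAA. Calls named with these sequences are those made before the GC correction described below.
CHAC1, 209 bases before the start, chr15:40953251-40953280, minus strand: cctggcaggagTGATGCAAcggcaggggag
CEBPG, 42 bases before the start, chr19:33374060-33374089, plus strand: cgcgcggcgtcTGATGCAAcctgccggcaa
ASNS, 68 bases before the start, chr7:97872458-97872487, minus strand: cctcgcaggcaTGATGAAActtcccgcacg
SLC3A2, 37 bases after the start, chr11:62881725-62881748, minus strand: ggagcTGATGTAAggagtcctgca
SLC1A5, 97 bases before the start, chr19:46784893-46784922, minus strand: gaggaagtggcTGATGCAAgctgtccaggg
GARS, 33 bases before the start, chr7:30594834-30594863, minus strand: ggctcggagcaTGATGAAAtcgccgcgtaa
NARS, 14 bases after the start, chr18:57621804-57621833, minus strand: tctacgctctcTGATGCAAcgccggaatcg
TARS, 2 bases after the start, chr5:33440956-33440985, minus strand: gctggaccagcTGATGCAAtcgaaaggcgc
The central letter was C in CHAC1, CEBPG, SLC1A5, NARS and TARS, A in ASNS and GARS, and T in SLC3A2. TRIB3, SESN2, DDIT3, STC2 and PHGDH, which also changed, held no match in the windows searched. AARS, CARS, IARS, MARS and SLC7A1 held the letters and were called neither for stiffness nor for glucose. The letters were thus not confined to members that changed. After GC correction CEBPG, SLC1A5, TARS, DDIT3 and PHGDH were called in neither comparison.

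The 10 libraries had 2.98 to 28.61 M (1e6) mapped reads, and the 400 Pa libraries at 5 mM were the deepest. Each library is named by group as the deeper or the shallower of its pair, since the table columns carry no replicate number, and the deeper one is given first. The group of the deeper 1 kPa library was taken from its column heading, because the command in the table header reads it from a folder whose name states no gel. Of 7 epithelial and basal markers all 7 were expressed, with KRT5 at 1090 to 1760 scaled FPKM, and none of 9 markers of blood, endothelial and fibroblast cells exceeded 1.1 scaled FPKM, with CD3E, VWF and COL1A2 among those at 0 in every library. Of the epithelial and basal markers, KRT17 had a log2 fold change of -0.99 ± 0.14 at 60 kPa and -0.90 ± 0.14 at 25 mM (adjusted p = 0.00382 and 0.00622, limma). After the GC correction described below it was -0.60 ± 0.04 and -0.51 ± 0.04 (adjusted p = 0.000151 and 0.00232). Means at 400 Pa, 60 kPa and 25 mM were 1650, 1230 and 1100 for KRT5, 246, 177 and 142 for KRT14, and 172, 126 and 123 for KRT18. The markers did not all move this way. TP63 (9.49, 9.41 and 12.6), CDH1 (19.9, 14.2 and 24.0) and EPCAM (10.5, 11.8 and 15.1) had higher means at 25 mM. The part of such shifts in the results below was not tested.

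Values are scaled FPKM, that is fragments per kilobase and 1e6 mapped reads after median-of-ratios scaling. A log2 fold change is a difference of log2(scaled FPKM + 1) with its standard error, a scale that understates changes of low genes. It was tested with limma in all 10 libraries, and a gene was called at a Benjamini-Hochberg adjusted p under 0.05 over 12819 genes. In comparisons of 2 groups, these p-values rest on the spread between the 2 libraries of a group, pooled over all 5 groups. That pool includes the 6 kPa pair, whose spread was the largest. In bulk libraries such as these, fewer cells expressing a gene and less RNA per cell cannot be told apart.

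A property of the libraries lies along both main comparisons. Over 12649 genes, a library's deviation from the gene mean correlated with the GC content of the transcript at Spearman's rho of 0.60 to 0.66 in the libraries at 400 Pa, the libraries at 1 kPa and the deeper of the pair at 6 kPa. The value was -0.31 in the shallower 6 kPa library and -0.58 to -0.66 in the libraries at 60 kPa and 25 mM. The groups and this GC trend cannot be told apart at 60 kPa against 400 Pa or at 25 mM against 5 mM. Counts of called members are therefore given also after a loess correction for GC content in every library, as are the fold changes the text turns on. The contrast of 60 kPa with 25 mM sets libraries of like GC trend against each other, and there the fold change of all genes correlated with GC content at rho = 0.12, against -0.72 for stiffness and -0.78 for glucose. Over the 20 synthetases alone it was 0.65 in that contrast, and 0.59 after correction.

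**Figure D1:**
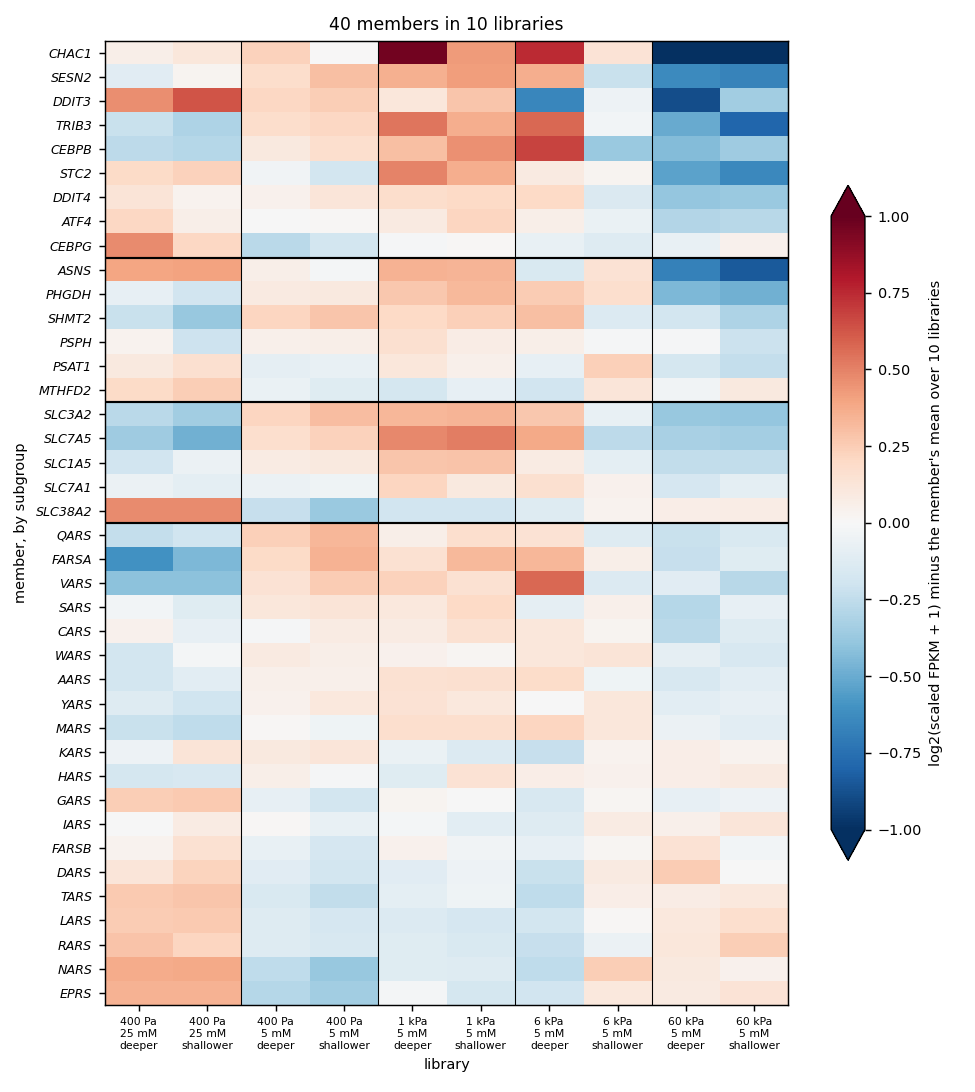
Log2(scaled FPKM + 1) of 40 members (rows, by subgroup) minus each member's mean over the 10 libraries (columns), with colours ending at -1 and 1. ATF4, CHAC1, SESN2, TRIB3, STC2, DDIT4, ASNS and PHGDH are lowest in the 60 kPa libraries, and the shallower 6 kPa library differs from the deeper one in many rows.

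On 60 kPa gels the stress arm of the ATF4 programme was lower than on 400 Pa gels: 7 of 9 tested stress regulators, 3 of 6 enzymes and 2 of 5 transporters fell. The synthetases split, with 3 higher, 3 lower and 14 not called. In all, 4 of 40 tested members rose and 15 fell, against 13.3% of all tested genes that rose and 9.19% that fell. The median log2 fold change was -0.19 over the 40 members and 0.00 over all tested genes. After GC correction none of the 40 was higher and 7 were lower (TRIB3, SESN2, CHAC1, STC2, ASNS, SLC3A2 and QARS), against 5.47% of all genes higher and 4.70% lower. Without scaling, 4 members rose and 11 fell, and over all genes 1933 rose and 788 fell. With the deposited log2 values, 7 of 41 rose and 22 fell, against 26.6% of all genes that rose and 25.2% that fell. Leaving out 1 of the 4 libraries kept between 1 and 5 of the 19 calls: 1 without the shallower 400 Pa library, 4 without the deeper 400 Pa library, 4 without the shallower 60 kPa library and 5 without the deeper one. ASNS was called in all 4 of those fits.

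ATF4 itself (hg19 chr22:39916569-39918691) was at 115 and 116 scaled FPKM in the 60 kPa libraries and at 163 and 147 in the 25 mM libraries, against 141 and 142 in the 400 Pa libraries at 5 mM. The 1 kPa libraries had 150 and 164 and the 6 kPa libraries 147 and 135. Both 60 kPa libraries lay below the other 8. The log2 fold change was -0.30 ± 0.08 at 60 kPa against 400 Pa (adjusted p = 0.0316, limma) and -0.13 ± 0.06 after GC correction (adjusted p = 0.188), so it was called before the correction and not after it.

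CHAC1 encodes an enzyme that breaks down glutathione and is a known ATF4 target. Its level was 0.756 and 0.336 scaled FPKM in the 60 kPa libraries and 3.04 and 3.19 in the 25 mM libraries, against 3.54 and 2.88 in the 400 Pa libraries. It was 6.55 and 4.2 at 1 kPa and 5.49 and 3.27 at 6 kPa. The 60 kPa libraries held 9 and 3 reads of the gene, the fewest of any pair, and lay below all others. With a log2 fold change of -1.46 ± 0.25 (adjusted p = 0.00722, limma), it fell furthest of the 40 members, and the value after GC correction was -1.06 ± 0.21 (adjusted p = 0.0167).

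SESN2, a stress-induced inhibitor of mTORC1 signalling, was at 3.31 and 3.2 scaled FPKM in the 60 kPa libraries and 5.18 and 5.83 in the 25 mM libraries, against 6.54 and 7.24 in the 400 Pa libraries. At 1 kPa it was 7.58 and 7.96 and at 6 kPa 7.61 and 4.72. It fell by 0.89 on the log2 scale at 60 kPa (SE 0.18, adjusted p = 0.0121, limma), and by 0.55 after GC correction (adjusted p = 0.0213).
TRIB3, the pseudokinase that feeds back on ATF4, was at 26.1 and 21.1 scaled FPKM at 60 kPa and 31.9 and 29.9 at 25 mM, against 42.4 and 43.2 at 400 Pa. It was 54.6 and 48.3 at 1 kPa and 56.1 and 36.6 at 6 kPa. Its libraries at 60 kPa were the lowest and those at 25 mM the next lowest. The stiffness change was -0.84 ± 0.18 (adjusted p = 0.0157, limma) and -0.47 ± 0.11 after correction (adjusted p = 0.028). The glucose change was -0.46 ± 0.18 (adjusted p = 0.0958), not past the threshold.

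STC2, a secreted glycoprotein induced by stress, was at 7.91 and 7.26 scaled FPKM at 60 kPa and 13.8 and 14.2 at 25 mM, against 11.6 and 10.4 at 400 Pa. The other gels gave 17.2 and 15.6 at 1 kPa and 12.8 and 12.2 at 6 kPa. The 60 kPa libraries lay below the 400 Pa libraries and the 25 mM libraries above them. Stiffness changed it by -0.48 ± 0.10 (adjusted p = 0.0137, limma) and glucose by 0.32 ± 0.10 (adjusted p = 0.0488). Both calls and both directions were kept after GC correction, at -0.38 ± 0.09 and 0.40 ± 0.09 (adjusted p = 0.0347 and 0.0425). With 1 library left out, the stiffness change ranged from -0.55 to -0.42 and the glucose change from 0.25 to 0.39. Those fits leave 1 library in a group, so these ranges describe size and do not back the calls.

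DDIT4, an mTORC1 inhibitor also known as REDD1, was the most abundant of the stress regulators, at 138 and 140 scaled FPKM at 60 kPa and 198 and 186 at 25 mM, against 187 and 197 at 400 Pa. It was 205 and 208 at 1 kPa and 208 and 164 at 6 kPa, with the 60 kPa libraries lowest. Its stiffness change of -0.46 ± 0.10 (adjusted p = 0.0172, limma) was -0.15 ± 0.05 after correction (adjusted p = 0.0684). DDIT3, which encodes CHOP, averaged 7.49 ± 2.2 scaled FPKM at 60 kPa and 17.7 ± 1.5 at 25 mM, against 14 ± 0.3 at 400 Pa (SD, n = 2 each). It fell by 0.84 at 60 kPa (SE 0.22, adjusted p = 0.0283, limma) and the value after correction was -0.78 ± 0.22 (adjusted p = 0.0584). The pair of C/EBP genes were not called for stiffness: CEBPB at -0.53 ± 0.27 (adjusted p = 0.182) and CEBPG at 0.20 ± 0.11 (adjusted p = 0.224). VLDLR, a lipoprotein receptor and known ATF4 target, had 0 to 23 reads a library and at most 0.482 scaled FPKM, below the level required for testing.

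**Figure D2:**
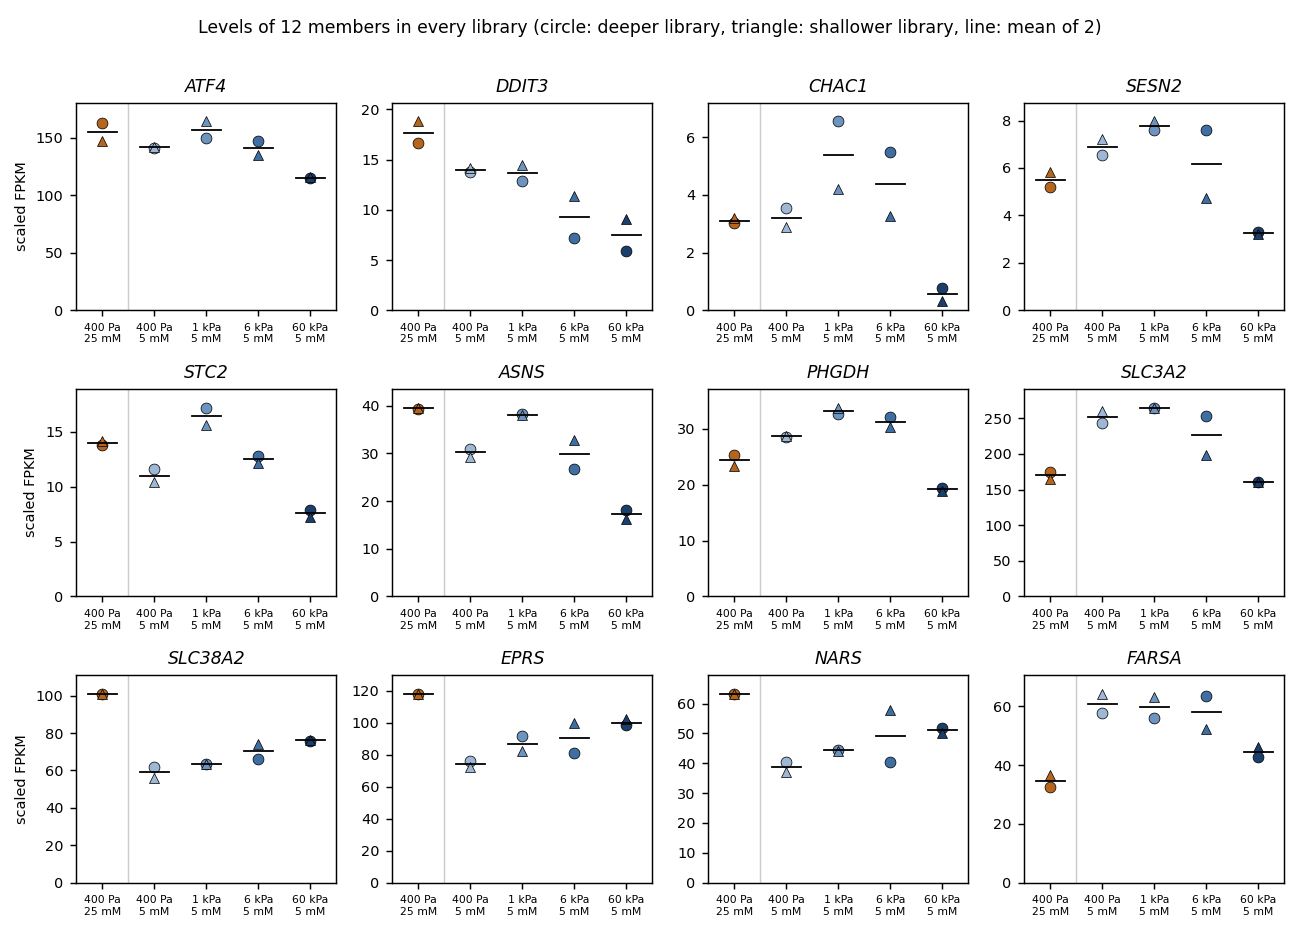
Scaled FPKM (linear axes from 0) of 12 members in every library, with circles for the deeper and triangles for the shallower library of each group and lines for the mean of 2. ASNS, STC2 and CHAC1 are lowest at 60 kPa, while SLC38A2, EPRS and NARS are highest at 400 Pa with 25 mM glucose.

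Among the enzymes, ASNS and PHGDH gave the clearest falls on the stiff gel. ASNS (hg19 chr7:97481429-97501477) makes asparagine and carries the TGATGAAA match printed above. It was at 18.2 and 16.2 scaled FPKM at 60 kPa and 39.4 and 39.6 at 25 mM, against 31 and 29.3 at 400 Pa. It was 38.2 and 38 at 1 kPa and 26.7 and 32.9 at 6 kPa. The 60 kPa libraries were the lowest of the 10 and the 25 mM libraries the highest. The stiffness change was -0.78 ± 0.11 (adjusted p = 0.00365, limma) and, after GC correction, -0.96 ± 0.08 (adjusted p = 0.000322). With 1 library left out it ranged from -0.85 to -0.70, with adjusted p at most 0.0452.

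PHGDH, which catalyses the first step of serine synthesis, was at 19.4 and 18.9 scaled FPKM at 60 kPa and 25.3 and 23.4 at 25 mM, against 28.6 and 28.8 at 400 Pa, 32.6 and 33.8 at 1 kPa and 32.2 and 30.3 at 6 kPa. The 60 kPa libraries were again lowest, with a change of -0.56 ± 0.08 (adjusted p = 0.004, limma) that was -0.27 ± 0.07 after correction (adjusted p = 0.0561). It was called in 3 of the 4 fits with 1 library left out, and not without the shallower 400 Pa library (adjusted p = 0.0564). SHMT2, the mitochondrial enzyme that splits serine into glycine and a folate-bound carbon, was at 80.3 and 73.5 scaled FPKM at 60 kPa and 78.1 and 70.1 at 25 mM, against 106 and 111 at 400 Pa, 105 and 108 at 1 kPa and 113 and 83 at 6 kPa. It fell by 0.49 at 60 kPa (adjusted p = 0.0323, limma) and by 0.55 at 25 mM (adjusted p = 0.021), and neither call was kept after correction (adjusted p = 0.13 and 0.0984).

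The remaining enzymes were called in neither comparison. PSAT1, the second enzyme of serine synthesis, was at 43.4 and 41.6 scaled FPKM at 60 kPa and 52.7 and 55 at 25 mM, against 46.3 and 46.7 at 400 Pa, 53.3 and 51.1 at 1 kPa and 46.4 and 58.2 at 6 kPa. PSPH, the third, was at 10.9 and 9.31 at 60 kPa and 11.3 and 9.37 at 25 mM, against 11.4 and 11.5 at 400 Pa, 12.4 and 11.6 at 1 kPa and 11.5 and 10.9 at 6 kPa. Only the first of the 3 serine enzymes thus passed the test for stiffness. MTHFD2, which oxidises the mitochondrial folate unit, was at 53.6 and 58.9 at 60 kPa and 62.9 and 65.4 at 25 mM, against 52.4 and 50.3 at 400 Pa, 48.6 and 51.9 at 1 kPa and 48 and 59.7 at 6 kPa. Its changes were 0.13 ± 0.11 for stiffness and 0.31 ± 0.11 for glucose (adjusted p = 0.422 and 0.0631, limma).

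The amino acid transporters split. SLC3A2 and SLC7A5 form the heavy and light chain of the exchanger LAT1, which brings in leucine and other large amino acids. SLC3A2 was at 161 and 160 scaled FPKM at 60 kPa and 174 and 165 at 25 mM, against 243 and 260 at 400 Pa, 264 and 265 at 1 kPa and 253 and 199 at 6 kPa. The 60 kPa and 25 mM libraries all lay below both 400 Pa libraries. It fell in both comparisons, by 0.65 and 0.56 (adjusted p = 0.00544 and 0.00884, limma), and both calls were kept after correction, at -0.34 ± 0.04 and -0.25 ± 0.04 (adjusted p = 0.00277 and 0.0228). SLC7A5, the most abundant of the 41 members, was at 276 and 273 at 60 kPa and 270 and 248 at 25 mM, against 390 and 406 at 400 Pa, 482 and 494 at 1 kPa and 450 and 288 at 6 kPa. Its changes were -0.54 ± 0.17 for stiffness (adjusted p = 0.051) and -0.62 ± 0.17 for glucose (adjusted p = 0.0288, limma), and the adjusted p after correction was 0.172 and 0.0784.

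SLC38A2, a sodium-coupled carrier of small neutral amino acids also known as SNAT2, went the other way. It was at 75.8 and 76.4 scaled FPKM at 60 kPa and 101 and 101 at 25 mM, against 61.8 and 55.9 at 400 Pa, 63.3 and 63.3 at 1 kPa and 66.2 and 74.3 at 6 kPa. The 25 mM libraries were the highest of the 10. Its rise of 0.77 ± 0.08 at 25 mM (adjusted p = 0.00513, limma) was 0.30 ± 0.05 after correction (adjusted p = 0.0227). Its rise of 0.37 ± 0.08 at 60 kPa (adjusted p = 0.0167) turned to -0.04 ± 0.05 after correction (adjusted p = 0.738). SLC1A5, the glutamine exchanger ASCT2, was at 77.1 and 77.3 at 60 kPa and 80.3 and 88 at 25 mM, against 97 and 98.3 at 400 Pa, 111 and 112 at 1 kPa and 97.3 and 85.7 at 6 kPa. It fell at 60 kPa by 0.34 (adjusted p = 0.0218, limma), with -0.04 ± 0.06 after correction (adjusted p = 0.774). SLC7A1, the carrier of cationic amino acids, stood at 20.2 and 21.3 at 60 kPa and 21.9 and 21.2 at 25 mM, against 21.9 and 22.1 at 400 Pa, 26.7 and 24.5 at 1 kPa and 25.6 and 23.6 at 6 kPa, and was called in neither comparison.

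In high glucose on the 400 Pa gel, 10 of 40 members rose and 6 fell, against 16.5% of all tested genes that rose and 10.3% that fell. The 10 higher members were CEBPG, STC2, ASNS, SLC38A2 and the synthetases EPRS, GARS, LARS, NARS, RARS and TARS, and the 6 lower were SHMT2, SLC3A2, SLC7A5, FARSA, QARS and VARS. After GC correction 7 were higher and 3 lower, against 2.82% and 3.00% of all genes. The 7 were STC2, SLC38A2, EPRS, GARS and NARS, together with ATF4 at 0.27 ± 0.06 and DDIT4 at 0.32 ± 0.05 (adjusted p = 0.0348 and 0.0113), which were not called before it. The median log2 fold change of the members was -0.04, and 0.03 over all tested genes. Without scaling 11 rose and 5 fell, and over all genes 2260 rose and 876 fell. With the deposited log2 values 14 of 41 rose and 17 fell, against 27.9% of all genes that rose and 27.5% that fell. With 1 library of either group left out, most of these calls were lost, in fits that leave 1 library in a group and fewer residual degrees of freedom. None of the fold changes changed sign (0 reversed). EPRS ranged from 0.63 to 0.70, LARS from 0.39 to 0.43, ASNS from 0.34 to 0.42 and CEBPG, which moved more, from 0.43 to 0.69.

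ASNS and STC2 were the only members of the 40 called in opposite directions in the stiffness and glucose comparisons, which share their 400 Pa libraries. The glucose change of ASNS was 0.38 ± 0.11 (adjusted p = 0.0365, limma), and it was not called after GC correction, at 0.12 ± 0.08 (adjusted p = 0.438). CEBPG, a C/EBP partner of ATF4, was at 9.97 and 10.9 scaled FPKM at 60 kPa and 15.1 and 12.4 at 25 mM, against 8.62 and 9.22 at 400 Pa, 10.5 and 10.7 at 1 kPa and 9.97 and 9.6 at 6 kPa. Its rise with glucose of 0.56 ± 0.11 (adjusted p = 0.0118) was 0.10 ± 0.13 after correction (adjusted p = 0.709). A further 8 members passed both tests with the same sign, 9 for stiffness alone, 6 for glucose alone and 15 in neither. These counts do not test a difference between the comparisons. This split was not counted over all genes, and both comparisons share the 400 Pa libraries and lie along the GC trend, so the counts are given as description only.

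**Figure D3:**
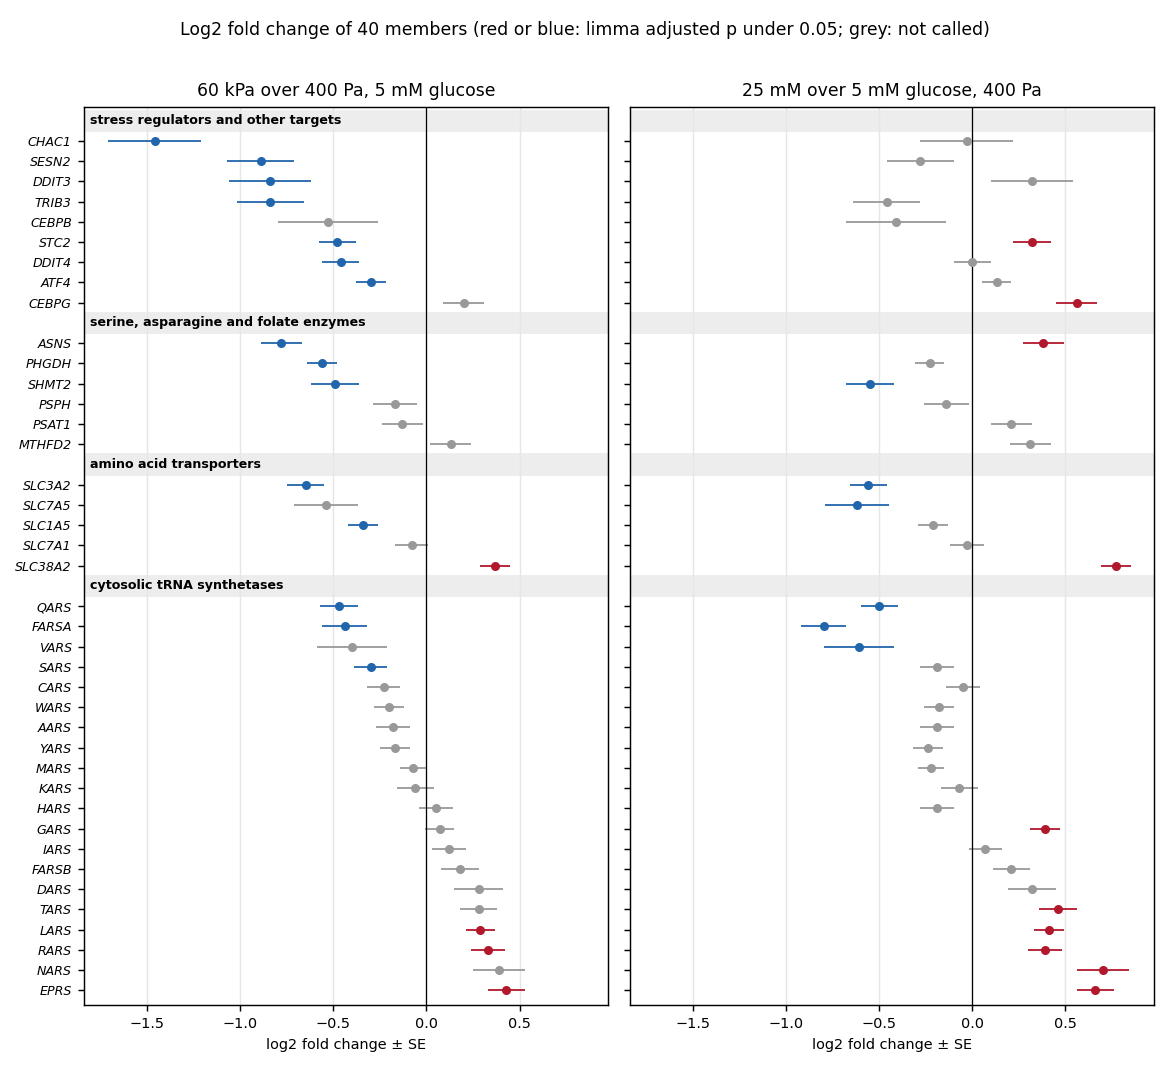
Log2 fold change with standard error of the 40 tested members, for 60 kPa over 400 Pa at 5 mM glucose (left) and 25 mM over 5 mM glucose on 400 Pa (right), on 1 scale and ordered by the left value within each subgroup. The stress regulators reach -1.46 (CHAC1) on the left, and the synthetases spread to both sides of 0 in both panels.

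The synthetases charge tRNAs with their amino acids and were all expressed, with means over the libraries from 23.8 (CARS) to 107 (KARS) scaled FPKM. EPRS, which joins glutamate and proline to their tRNAs, was at 98.5 and 102 scaled FPKM at 60 kPa and 118 and 118 at 25 mM, against 75.9 and 72.5 at 400 Pa, 91.4 and 82.1 at 1 kPa and 81.1 and 99.8 at 6 kPa. NARS, for asparagine, was at 52 and 50 at 60 kPa and 63.1 and 63.3 at 25 mM, against 40.4 and 37 at 400 Pa, 44.5 and 44.2 at 1 kPa and 40.4 and 57.8 at 6 kPa. For both genes the 25 mM libraries were the highest of the 10. At 25 mM, EPRS rose by 0.66 ± 0.10 and NARS by 0.70 ± 0.14 (adjusted p = 0.00602 and 0.0125, limma), and after correction by 0.37 ± 0.06 and 0.46 ± 0.11 (adjusted p = 0.0193 and 0.0429). At 60 kPa the changes were 0.43 ± 0.10 and 0.39 ± 0.14 (adjusted p = 0.0211 and 0.0847), and neither was called after correction (adjusted p = 0.0706 and 0.207).

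GARS, for glycine, was at 69.1 and 70.5 scaled FPKM at 60 kPa and 86.8 and 87.9 at 25 mM, against 69.2 and 64.1 at 400 Pa, 74.6 and 73 at 1 kPa and 65.4 and 74.3 at 6 kPa. The 25 mM libraries stood above the other 8, with a glucose change of 0.39 ± 0.08 (adjusted p = 0.0132, limma) and 0.33 ± 0.07 after correction (adjusted p = 0.0292). LARS, for leucine, was at 49.1 and 51.4 at 60 kPa and 54.5 and 54.8 at 25 mM, against 41.6 and 40.5 at 400 Pa, 41.4 and 40.6 at 1 kPa and 40 and 46 at 6 kPa. Its rises of 0.29 ± 0.08 at 60 kPa and 0.41 ± 0.08 at 25 mM (adjusted p = 0.0421 and 0.0126) became -0.02 ± 0.05 and 0.04 ± 0.05 after correction (adjusted p = 0.846 and 0.721). RARS (arginine) and TARS (threonine) rose by 0.39 ± 0.09 and 0.46 ± 0.10 at 25 mM before correction, and were at 0.02 ± 0.06 and 0.18 ± 0.06 after it, not called.

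The synthetases that fell were FARSA, QARS and SARS at 60 kPa, and FARSA, QARS and VARS at 25 mM. FARSA, the alpha subunit of the enzyme for phenylalanine, was at 42.8 and 46.3 scaled FPKM at 60 kPa and 32.7 and 36.7 at 25 mM, against 57.7 and 64.3 at 400 Pa, 56.2 and 63.3 at 1 kPa and 63.6 and 52.4 at 6 kPa. QARS, for glutamine, was at 48.6 and 51.1 at 60 kPa and 48.1 and 49.2 at 25 mM, against 67 and 71.7 at 400 Pa, 59.1 and 64 at 1 kPa and 62.8 and 51.8 at 6 kPa. In both genes the 60 kPa and 25 mM libraries lay below both 400 Pa libraries at 5 mM. FARSA changed by -0.44 ± 0.12 at 60 kPa and -0.80 ± 0.12 at 25 mM (adjusted p = 0.0312 and 0.00602, limma), and after correction by -0.07 ± 0.10 and -0.41 ± 0.10 (adjusted p = 0.718 and 0.0445). FARSB, the beta subunit of the same enzyme, was not called, at 0.18 ± 0.10 and 0.21 ± 0.10. QARS changed by -0.47 ± 0.10 and -0.50 ± 0.10 (adjusted p = 0.0152 and 0.0118), and after correction by -0.24 ± 0.06 and -0.28 ± 0.06 (adjusted p = 0.05, under the threshold before rounding, and 0.0437).

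The direction of a synthetase went with the GC content of its transcript. Over the 20 genes, Spearman's rho between GC content and log2 fold change was -0.83 for stiffness and -0.87 for glucose, and -0.04 and -0.44 after GC correction. These are descriptions across genes that share libraries. EPRS (43.2% GC), LARS (41.5%) and RARS (41.4%) were higher in both comparisons, and FARSA (61.4%) and QARS (55.2%) lower. After correction the synthetase calls were QARS alone at 60 kPa, and EPRS, GARS and NARS (higher) with FARSA and QARS (lower) at 25 mM. For the other 20 tested members rho was -0.65 for stiffness and -0.79 for glucose, and -0.14 and -0.21 after correction.

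**Figure D4:**
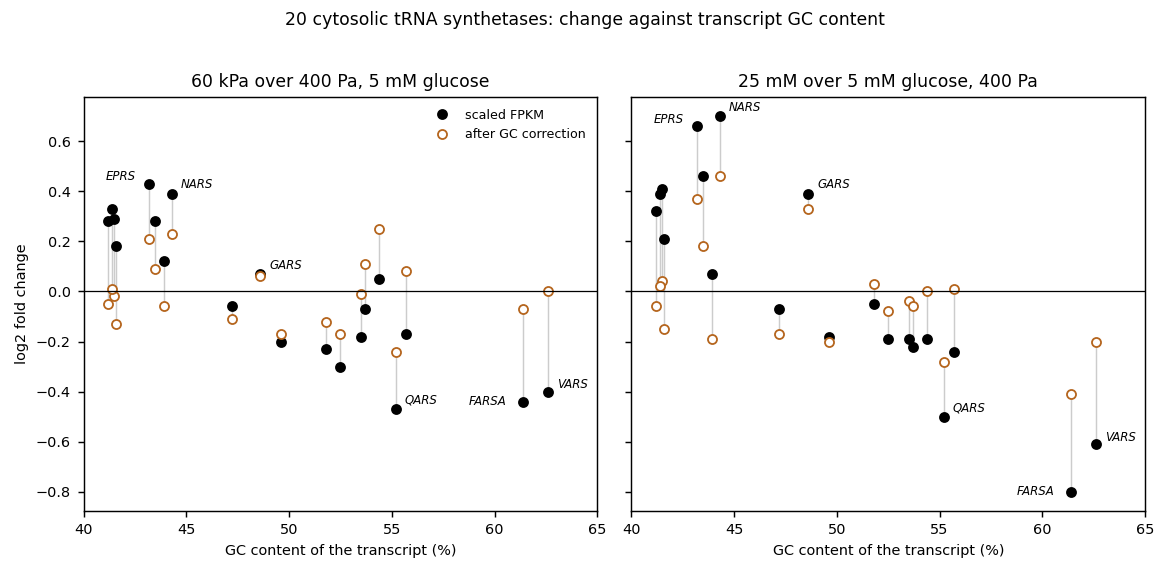
Log2 fold change of the 20 cytosolic tRNA synthetases against the GC content of their transcripts, for 60 kPa over 400 Pa (left) and 25 mM over 5 mM glucose (right), with filled points before and open points after GC correction and a line joining the points of a gene. Filled points fall with rising GC content in both panels (rho = -0.83 and -0.87).

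Set directly against high glucose on 400 Pa, the 60 kPa gels had lower levels of ATF4 and of 5 targets: DDIT3, CHAC1, STC2, ASNS and SLC38A2. None of the 40 members was higher at 60 kPa and 6 were lower, against 0.772% of all tested genes higher and 1.83% lower. The log2 fold changes were -0.42 ± 0.08 for ATF4, -1.16 ± 0.22 for DDIT3, -1.43 ± 0.25 for CHAC1, -0.80 ± 0.10 for STC2, -1.15 ± 0.11 for ASNS and -0.40 ± 0.08 for SLC38A2. Their adjusted p-values (limma) were 0.0324, 0.0324, 0.029, 0.00633, 0.00278 and 0.0413, in that order. For each of the 6, both 60 kPa libraries lay below both 25 mM libraries. The 6 were picked by the test on these same libraries, so this adds no support, and it was not counted over all genes. This is also the test of whether the 2 responses of these genes differed, since the 400 Pa libraries cancel.

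After GC correction the same 6 were lower, and DDIT4 (-0.47 ± 0.05), SESN2 (-0.62 ± 0.12), PHGDH (-0.34 ± 0.07) and GARS (-0.27 ± 0.07) joined them, making 10 lower and 0 higher, against 3.24% of all genes lower and 3.63% higher. The values of the 6 hardly moved: ATF4 was -0.41 ± 0.06 and ASNS -1.07 ± 0.08 after correction. By subgroup, 4 of 9 stress regulators, 1 of 6 enzymes, 1 of 5 transporters and 0 of 20 synthetases were called before correction. An unadjusted p under 0.05 was found in 4 of the 20 synthetases, and the share of all genes under that p is not given here. SLC3A2, which fell in both groups against 400 Pa, and SLC7A5, called lower at 25 mM but not at 60 kPa, gave -0.08 ± 0.10 and 0.08 ± 0.17 here (adjusted p = 0.762 and 0.861), and SHMT2 gave 0.05 ± 0.13 (adjusted p = 0.894). With 1 of the 4 libraries left out, whichever it was, ASNS alone kept its call, at -1.23 to -1.07 (adjusted p at most 0.0367). Without the 6 kPa libraries, an alternative added after seeing the data, 13 members were lower and 0 higher, against 5.13% of all genes lower and 4.28% higher.

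**Figure D5:**
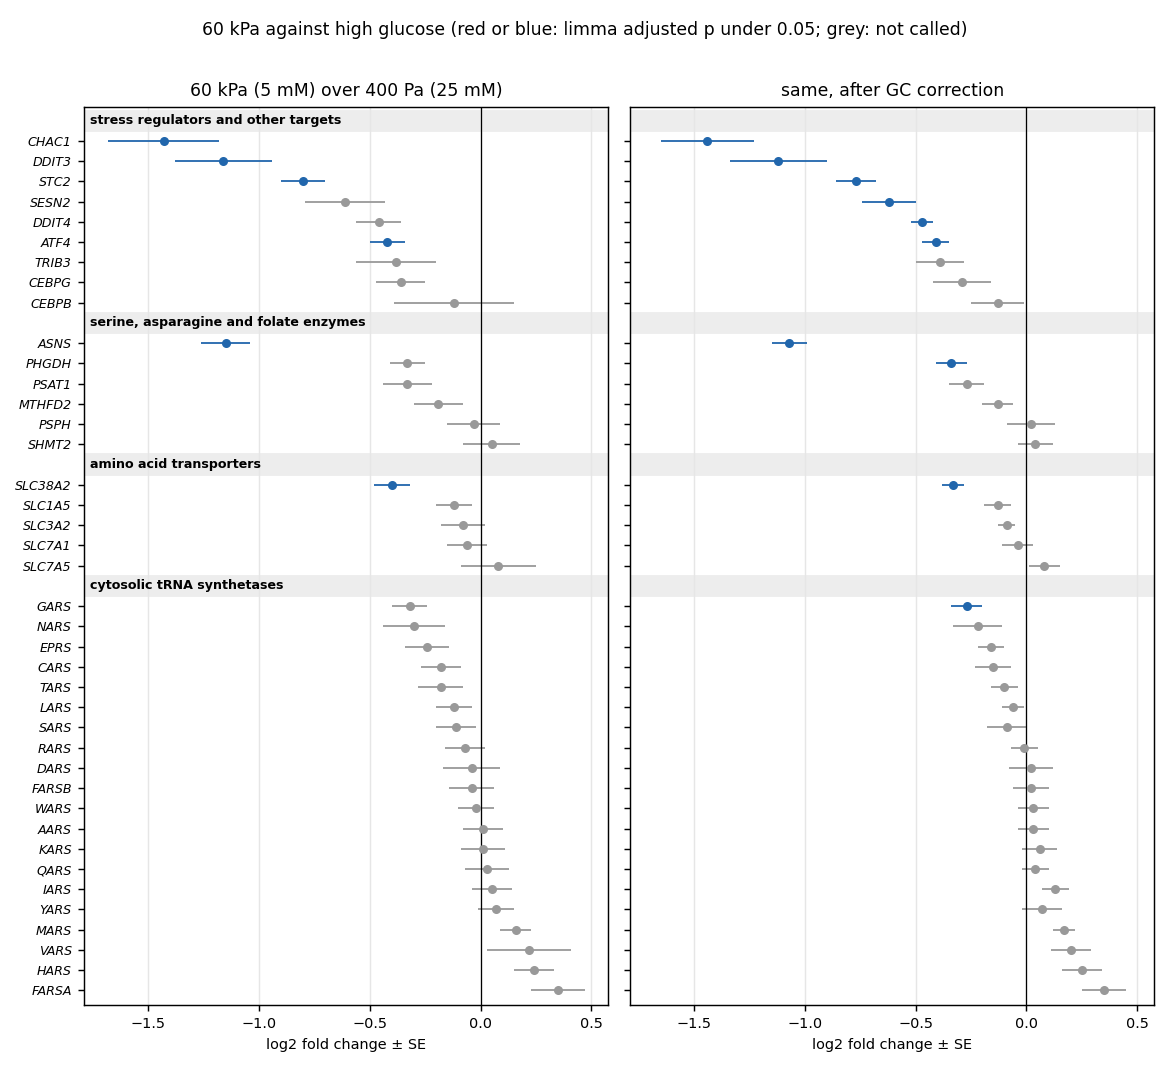
Log2 fold change with standard error of the 40 tested members for 60 kPa at 5 mM glucose over 400 Pa at 25 mM glucose, before (left) and after (right) GC correction, ordered by the left value within each subgroup. The stress regulators lie at or left of -0.12 in both panels, while the synthetases lie between -0.32 and 0.35.

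Of the 15 members lower at 60 kPa than at 400 Pa, the most negative of the 3 steps between gels was the last, 60 kPa against 6 kPa, in 12. In DDIT3, SLC1A5 and SARS it was 6 kPa against 1 kPa. The 15 were picked by the 60 kPa libraries that also enter the last step, and the steps span unequal ranges of stiffness. This order therefore describes the 15 and tests nothing, and it was not counted over all genes. Before GC correction all 15 had a negative change in both the middle and the last step. After it, FARSA (0.11 ± 0.10) and PHGDH (0.03 ± 0.07) were above 0 from 1 kPa to 6 kPa, and the others of the 15 were negative there. The most negative step of QARS was then the first, at -0.18 ± 0.06, against -0.02 and -0.04 in the next steps. In FARSA it was also the first, at -0.12 ± 0.10, against 0.11 and -0.05. The order of the 15 was not recounted after correction. From 400 Pa to 1 kPa no member was called, and neither was any other gene (0.00% of 12819). An unadjusted p under 0.05 (limma) was found in 6 of the 40 members and in 934 of the 12819 genes. After GC correction no member was called either, against 0.0553% of all genes. Then 11 members and 1387 of 12649 genes had an unadjusted p under 0.05. Both 1 kPa libraries lay above both 400 Pa libraries in 25 of the 40 members, against 32.5% of all tested genes, and below them in 3, against 17.6%. The 25 included ATF4, TRIB3, CHAC1, STC2, ASNS, PHGDH, SLC3A2 and SLC7A5. The median log2 fold change of that step was 0.11 over the members and 0.05 over all tested genes. From 1 kPa to 6 kPa no member was called, against 0.491% of all genes. In that step 5 members and 1644 of 12819 genes had an unadjusted p under 0.05. After correction no member was called, against 1.72% of all genes, and 6 members and 2180 of 12649 genes had an unadjusted p under 0.05.

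From 6 kPa to 60 kPa none of the members rose and 4 fell, against 0.140% of all genes that rose and 0.445% that fell. The 4 were CHAC1 (-1.78 ± 0.25), ASNS (-0.75 ± 0.11), PHGDH (-0.68 ± 0.08) and STC2 (-0.65 ± 0.10), with adjusted p-values (limma) of 0.0333, 0.0364, 0.0215 and 0.0395. After GC correction none rose and 6 fell, against 0.126% and 0.672% of all genes: the same 4, with PHGDH at -0.47 ± 0.07, and TRIB3 (-0.62 ± 0.11) and SLC3A2 (-0.26 ± 0.04). The 4 calls depended on the libraries in the fit. With the 60 kPa and 6 kPa libraries alone limma called no member and no other gene. An unadjusted p under 0.05 was then found in 10 members and in 1258 of all genes. None of the members was called without either of the 60 kPa libraries (7 of all genes each time). Without the deeper 6 kPa library 6 fell (187 of all genes called), and without the shallower one 20 fell and 7 rose (4310 of all genes called).

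The libraries at 6 kPa stood apart from each other. The deeper one was closer to the 1 kPa mean than to the 60 kPa mean in 33 of the 40 members and the shallower one in 19, and over all genes in 9101 and 4992 of 12819. Their spread was 7.34 times that of Poisson counts, against 1.95 to 2.62 in the other groups.

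As a slope per 10-fold of stiffness over the 8 libraries at 5 mM, 4 members rose and 15 fell, against 13.7% of all genes that rose and 9.80% that fell. The 4 were SLC38A2, EPRS, LARS and RARS. After GC correction none rose and 4 fell, against 4.73% and 3.67% of all genes: DDIT3 (-0.39 ± 0.09 per 10-fold), SESN2 (-0.28 ± 0.06), ASNS (-0.49 ± 0.09) and SLC3A2 (-0.17 ± 0.03). Without the 6 kPa libraries, 7 rose and 21 fell before correction, against 19.3% of all genes that rose and 19.5% that fell.

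Genes around the 41 were counted from lists of the same pathway. Of 14 genes of eIF2 control, 2 were higher and 1 lower at 60 kPa than at 400 Pa, against 13.3% and 9.19% of all genes, and after GC correction 0 were higher and 1 was lower, against 5.47% and 4.70%. The lower gene was PPP1R15A, which encodes GADD34, the stress-induced subunit that removes phosphate from eIF2. It was at 4.25 and 5.38 scaled FPKM at 60 kPa and 14.7 and 14.6 at 25 mM, against 13.4 and 11.9 at 400 Pa, with a stiffness change of -1.23 ± 0.13 (adjusted p = 0.00153, limma) and -1.44 ± 0.13 against 25 mM (adjusted p = 0.00229). After correction these were -0.91 ± 0.14 and -1.45 ± 0.14 (adjusted p = 0.00545 and 0.00077). None of the 4 eIF2 kinases was lower at 60 kPa, and EIF2AK2, which senses viral RNA, was higher (0.63 ± 0.10, adjusted p = 0.00547) but not after correction (0.16 ± 0.09, adjusted p = 0.31).

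Of 18 tested among 21 other known ATF4 targets, 1 rose and 7 fell at 60 kPa against 400 Pa, against 13.3% and 9.19% of all genes, and 0 and 4 after correction, against 5.47% and 4.70%. The 3 called genes of highest level were NUPR1 (-1.19 ± 0.17), XPOT (0.53 ± 0.10) and PCK2 (-0.57 ± 0.14), with adjusted p-values (limma) of 0.00381, 0.00906 and 0.0226. NUPR1, a small stress-induced chromatin protein, kept its call after correction (adjusted p = 0.00368), and XPOT, the tRNA export factor, and PCK2, the mitochondrial PEP carboxykinase, did not (adjusted p = 0.101 and 0.239). Against 25 mM, 4 of the 18 were lower at 60 kPa and 0 higher, with 1.83% and 0.772% over all genes. Of the 17 mitochondrial tRNA synthetases, 1 rose and 0 fell at 60 kPa against 400 Pa, and 0 of either after correction, beside the same shares of all genes. At 25 mM against 5 mM, 1 of the 17 rose and 1 fell, against 16.5% and 10.3% of all genes, and 0 of either after correction. Of 6 genes for the multisynthetase scaffold and tRNA handling, 3 rose at 60 kPa (XPOT, AIMP1 and EEF1E1), against 13.3% of all genes, and 0 after correction, against 5.47%. PPP1R15A and XPOT stand in more than 1 of these lists.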

How the data were processed

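The members and lists were chosen with earlier results of these data known. The submitters' processing notes name STAR, HOMER, DESeq2 and the build hg19, without versions. The authors computed FPKM for each of the 10 libraries with HOMER from exon reads of 1 transcript per gene, and the command sets no strand option, per the file headers. The log2 values of the 60 kPa and 25 mM comparisons, with 4 libraries each, were deposited by the authors as variance-stabilised values, and their p-values come from the same deposited tables and are not used here. They serve as an alternative, since 1 scale over all 5 groups was needed.

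FPKM were scaled by median-of-ratios factors (0.913 to 1.081), genes with a mean of at least 0.5 were kept (12819, among them 40 of 41 members), and limma 3.58.1 (R 4.3.3), with its trend option, was fitted to log2(scaled FPKM + 1) with 5 groups and 5 residual degrees of freedom. The slope used the 8 libraries at 5 mM. P-values were adjusted over all genes with the Benjamini-Hochberg method, with calls under 0.05. GC content came from transcript sequences (GENCODE v29) for 98.67% of tested genes, and the correction was a loess fit per library. Whole reads could be recovered from the FPKM, with 100% of tested values within 0.12 of a whole number, and a count test on them was not run. Values of every library are printed for ATF4 and, in each subgroup, for up to 6 members of smallest adjusted p for stiffness or glucose and for those called in opposite directions; other members are given by counts, means or fold changes, and other lists by counts with up to 3 called genes of highest level. The plain fit is the main one, and the alternatives were no scaling, a pseudocount of 0.25, no filter, GC correction, the compared groups alone, leaving out each library, and the deposited log2 values. Library sizes of 2.98 to 28.61 M (1e6) mapped reads limit the precision of low genes most in the shallow libraries.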

Additional observations from a re-analysis of the deposited data

How the results depend on the processing

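No paired analysis was possible because the table columns carry no replicate numbers. GC correction changed most counts of calls: 1287 genes for 60 kPa against 400 Pa (2889 before it), 736 for 25 mM against 5 mM (3431), 869 for 60 kPa against 25 mM (333), 7 for 1 kPa against 400 Pa (0), 218 for 6 kPa against 1 kPa (63) and 1062 for the slope (3007). Among members it gave 0 higher (4) and 7 lower (15) for stiffness, 3 lower (6) for glucose, and 10 lower (6) for 60 kPa against 25 mM. It turned the sign of SLC38A2 to -0.04 and of LARS to -0.02 for stiffness. With the compared groups alone, 4947 genes were called for stiffness, 5483 for glucose (15 members lower), and 0 for 6 kPa against 1 kPa and for 60 kPa against 6 kPa (75 otherwise). Without the 6 kPa libraries, added after seeing the data, the counts were 4998, 5589, 1207 (60 kPa against 25 mM) and 4972 (slope), with 7 members higher for stiffness, 13 lower for glucose and 13 lower for 60 kPa against 25 mM. The deposited log2 values gave 6589 genes for stiffness (7 members higher) and 7107 for glucose (17 members lower). No filter gave 220 genes and 2 members lower for 60 kPa against 25 mM, 4 genes for 1 kPa against 400 Pa, 34 for 6 kPa against 1 kPa and 17 for 60 kPa against 6 kPa. No scaling gave 27 and 26 genes for those last steps, and a pseudocount of 0.25 gave 130 for 60 kPa against 6 kPa. Leaving out 1 library gave 290 to 967 genes for stiffness, with 0 to 1 members higher and 1 to 5 lower. It gave 1 to 1104 for glucose, with 0 to 2 members higher and 0 to 2 lower, and 54 to 76 for 60 kPa against 25 mM, with 1 member lower in each fit. It gave 0 to 5 genes at 1 kPa against 400 Pa, 7 to 2268 at 6 kPa against 1 kPa, 7 to 4310 at 60 kPa against 6 kPa and 627 to 4636 for the slope. Fewer libraries leave fewer residual degrees of freedom in these fits. Of the 41 member calls in the 3 comparisons without the 1 and 6 kPa gels, 41 kept direction and call with a pseudocount of 0.25 and without the 6 kPa libraries, and 21 under GC correction. The causes were not tested further.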
